A study of Arabidopsis thaliana with 18 samples.

Results

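The RPD3-type histone deacetylase genes of Arabidopsis thaliana encode enzymes of a deacetylase class that trichostatin A (TSA) inhibits. The 10 genes described here were selected by their locus codes, HDA2, HDA5, HDA6, HDA7, HDA8, HDA9, HDA14, HDA15, HDA18 and HDA19, of 34218 genes counted, and no expression value was used to select them. RNA was sequenced from immature zygotic embryo (IZE) explants of the Columbia-0 genotype, which were cultured on 3 media for 5 or 10 d. The ET medium contained 1 µM TSA, the EA medium contained 5 µM of the synthetic auxin 2,4-D, and the E0 medium contained neither. Explants on ET and EA undergo somatic embryogenesis (SE), the formation of embryos from somatic cells, whereas explants on E0 grow into seedlings. The 6 groups (ET 5 d, ET 10 d, EA 5 d, EA 10 d, E0 5 d, E0 10 d) comprised 3 biological replicates each, named a, b and c. Each replicate pooled whole explants, fewer of them on day 10, so that embryo-forming and other explant tissue were sequenced together.

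RPD3-type enzymes remove acetyl groups from histone lysines with the help of a zinc ion in their catalytic pocket, and TSA blocks the enzyme by occupying this pocket. They act mostly as repressors of transcription, within complexes that carry them to their target genes. The family is divided into class I (HDA6, HDA7, HDA9, HDA19), class II (HDA5, HDA8, HDA14, HDA15, HDA18) and class IV (HDA2), and HDA6 and HDA19 are known to keep embryonic genes silent in seedlings after germination.

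The coding sequence around the catalytic histidines shows how the classes differ, and it is given for the 9 genes in which it was found. The stretches were read from the RefSeq TAIR10.1 genome in the coding direction and encode aspartate, any residue, histidine, a variable residue, glycine, aspartate or asparagine, and glycine, followed by a pair of further codons. Capitals mark the codon of the variable residue and the codon of aspartate or asparagine.
HDA19: gatatccacCACgggGATggagtggag
HDA6: gatgtccacCATggaGATggagtggaa
HDA9: gatgttcatCATggtGATggggttgaa
HDA5: gatgtccatCACggaAATggtacccag
HDA18: gatatccatCACggaAATggtacacag
HDA15: gatgtccatCATggcAACggaacccaa
HDA14: gatgttcacCACgggAATggcacaaat
HDA8: gatgtacatTATggaAATggcacagct
HDA2: gatgctcatCAAgggAATggccatgaa
The class I genes HDA19, HDA6 and HDA9 carried an aspartate codon at the second marked place, and the class II genes and HDA2 carried an asparagine codon. The first marked codon encoded histidine in 7 genes, tyrosine in HDA8 and glutamine in HDA2. The pattern was not found in the predicted HDA7 protein of 409 residues.

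The genes lie on chromosomes 1, 3, 4 and 5 (TAIR10.1 coordinates), and most are single genes that the counting of uniquely aligned reads can tell apart. HDA19 (AT4G38130, HD1 in RefSeq) is at chr4:17896278-17899509, HDA6 (AT5G63110) at chr5:25315506-25318347, HDA9 (AT3G44680) at chr3:16226519-16230009 and HDA7 (AT5G35600) at chr5:13770121-13771712, all on the minus strand. HDA15 (AT3G18520) is at chr3:6361159-6365705 and HDA8 (AT1G08460) at chr1:2672198-2674721 on the plus strand, and HDA14 (AT4G33470) at chr4:16102595-16105550 and HDA2 (AT5G26040) at chr5:9099152-9101682 on the minus strand. HDA18 (AT5G61070, chr5:24571095-24574387) and HDA5 (AT5G61060, chr5:24566783-24571072) are a tandem pair on the minus strand, with 22 bases between the end of HDA18 and the start of HDA5. Their predicted proteins were identical at 62.9% of 596 aligned residues, and the other close pairs were HDA6 and HDA7 with 64.9% and HDA6 and HDA19 with 63%.

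Sequence shared with other loci touched 3 of the genes. The closest stretch of 76 coding bases, the read length, differed by 1 base between HDA5 and HDA18, and the differing base is in capitals in the following lines, which join 2 exons (HDA5 chr5:24569660-24569834, HDA18 chr5:24573145-24573343).
HDA5: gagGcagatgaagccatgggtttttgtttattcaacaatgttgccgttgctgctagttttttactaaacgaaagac
HDA18: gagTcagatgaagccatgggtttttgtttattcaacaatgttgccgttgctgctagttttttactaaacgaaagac
No exon stretch of 76 bases of either gene occurred unchanged elsewhere in the genome. HDA9 was the only member for which such stretches did, 94 of 786 or 12%. Of these, 48 occur in HDA17, a short copy of HDA9 on the same chromosome, and 78 outside annotated genes. A stretch can count in both. The longest coding run that HDA9 (chr3:16227430-16227755) and HDA17 (chr3:16097503-16097718) share is 125 bases across exon joins. A read within it cannot be placed uniquely without the other read of its pair.
HDA9 and HDA17: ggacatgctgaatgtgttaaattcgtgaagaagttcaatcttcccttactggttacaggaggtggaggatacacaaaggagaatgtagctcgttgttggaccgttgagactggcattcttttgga
HDA17 had 0 to 7 counts per library and HDA10, a further copy, 0 to 3 counts. How far the HDA9 level rests on reads from the shared stretches was not tested. HDA6 shares 28 exon bases with the neighbouring gene AT5G63100 on its own strand, exons of HDA2 overlap a gene on the opposite strand over 34 bases (2.4%), and the strand setting of the counts is not given in the sources used here.

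The libraries held 9098758 to 58364735 counts, and 3 counts, taken as the detection floor, corresponded to 0.0487 to 0.329 CPM. Genes of the embryo (AT2S3, CRU1 and OLE1) had at least 48771 counts in every library, and 7 of 7 embryo markers exceeded the floor in all libraries of 5 groups, but 5 of 7 in E0 10 d. On day 5 the embryo markers summed to 13000 to 20600 CPM in ET, 19100 to 25100 in EA and 45400 to 68300 in E0. On day 10 the sums were 42500 to 49900 CPM in ET, 10100 to 18600 in EA and 41700 to 63700 in E0. AT2S3, CRU1 and OLE1 made up most of these sums, and not every embryo marker followed them. LEC1 and LEC2 each averaged 14.7 CPM in ET 5 d, beside 0.413 and 0.837 CPM in E0 5 d. Of the 7 markers, 3 were higher and 3 lower in ET against E0 at 5 d, and 4 and 0 at 10 d. The EA counts were 2 and 3 at 5 d, with 4 and 3 at 10 d. Of all genes, 18% to 24.2% were called higher and 20% to 25% lower in these comparisons. Of the endosperm markers, 2 or 3 of 6 exceeded the floor throughout a group, with summed levels of 11.2 to 17.5 CPM on ET and EA and 3.84 to 7.27 CPM on E0, while FIS2, FWA and PHE1 stayed at 0 to 7 counts. The endosperm sum was mostly EDE1, with group means of 12 to 13.4 CPM on ET and EA and 4.1 to 5.58 CPM on E0, whereas MEA had at most 0.0438 CPM on ET and EA and at least 0.309 CPM on E0, and AGL62 was called in neither direction. Of the seed coat markers, 1 of 5 exceeded the floor on ET and EA and 2 on E0, and their sum was 52.2 to 115 CPM over all groups. Not every seed coat marker followed the sum. Of the 2 that passed the count filter, 1 was lower and 0 higher in ET and in EA against E0 on both days. TT10 averaged at most 0.108 CPM on ET and EA and at least 0.355 CPM on E0. The 7 markers of dividing cells summed to 674 to 817 CPM on ET, 481 to 707 CPM on EA and 271 to 432 CPM on E0, and thus moved with the medium as several deacetylase genes did. Leaf and photosynthesis markers summed to 2040 to 4500 CPM on ET, 862 to 1380 CPM on EA and 1330 to 2220 CPM on E0. These ranges pool both days, and RBCS1A had the highest mean of the 6 markers in every group. LHCB1.1 departed from the sum, with 63.8 CPM in EA 5 d beside 30.7 CPM in E0 5 d. Its day 10 means were 114 CPM on EA and 460 CPM on E0. Tested against E0, EA 5 d had 1 leaf marker higher and 0 lower, whereas EA 10 d had 3 lower and 0 higher. ET 5 d had 4 higher and ET 10 d had 3, without a lower one. The part of these cell types in the results below was not tested, and in bulk RNA fewer cells of a type and less RNA per cell cannot be told apart.

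Transcript levels are given in CPM, counts relative to the TMM-scaled library size, and a gene was called differentially expressed (DEG) at an adjusted p-value under 0.05 in edgeR's quasi-likelihood F test, adjusted by Benjamini-Hochberg over the 23539 genes that passed the count filter. Of the 10 members, 9 passed the filter. HDA7, which is needed for the development of the female gametophyte, had no count in 9 libraries and at most 5 counts in any, so that only 1 library exceeded the floor and no change could be tested.

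By group mean of the level divided by exon length, HDA19 was the most abundant member and HDA18 the least abundant of the 9. In the single library ET 10 d replicate b, HDA18 (3.6 CPM per kb) was above HDA14 (3.02). Per kilobase of exon, HDA19 ranged over 40.2 to 102 CPM per kb in the 18 libraries, and HDA6, HDA9, HDA5 and HDA15 lay below it in every library. The level per length of the 10 genes added up to 186 ± 8.32 CPM per kb in ET 5 d, 159 ± 11.8 in EA 5 d and 117 ± 4.4 in E0 5 d (SD, n = 3 each). On day 10 the sums were 150 ± 15.1 CPM per kb in ET, 169 ± 13 in EA and 107 ± 1.73 in E0. On both days each of the inducer media was therefore above E0. HDA19 made up 50.8 ± 3.67% of the sum in ET 5 d, 49.3 ± 2.46% in EA 5 d and 51.9 ± 3.58% in E0 5 d, and on day 10 its share was 45.1 ± 3.87% in ET, 45.5 ± 1.82% in EA and 39.5 ± 3.22% in E0. HDA18 contributed 0.994 ± 0.135% in ET 5 d and 1.32 ± 0.781% in ET 10 d, and at most 0.417% in any EA or E0 library.

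**Figure D1:**
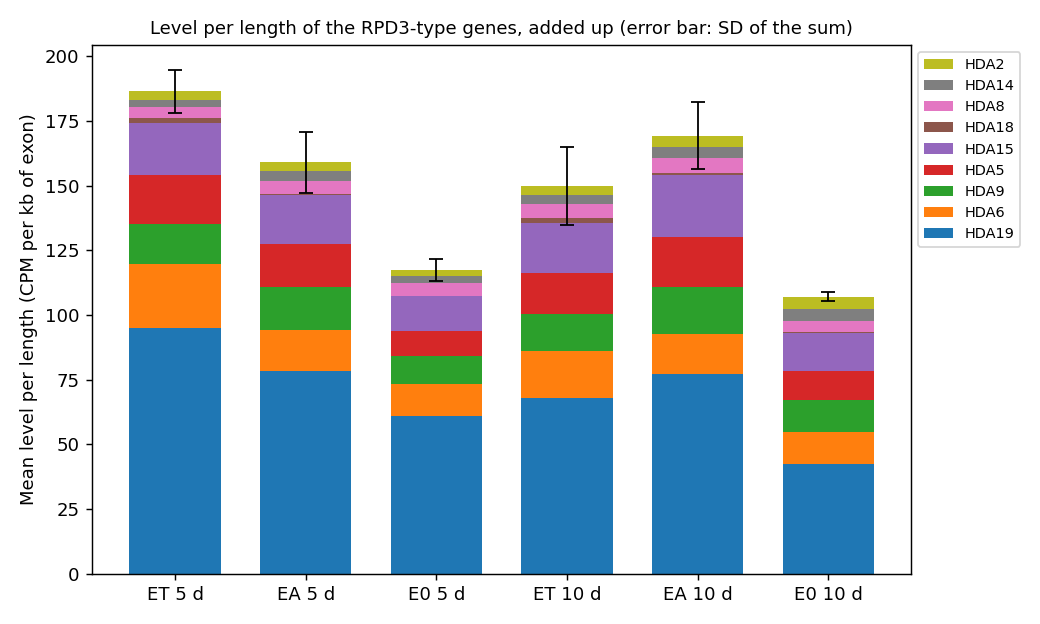
Mean level per length (CPM per kilobase of exon) of the 9 tested members in each group, stacked, with the SD of the summed level over 3 libraries as error bar. The stacks reach 186 and 150 CPM per kb on ET, 159 and 169 on EA, and 117 and 107 on E0, and HDA19 is the tallest block in each.

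Against E0, members of class I and class II were higher on the TSA medium and none were lower. In ET against E0 at 5 d, 6 of 9 tested members were higher (HDA5, HDA6, HDA9, HDA15, HDA18, HDA19) and 0 were lower, where 23.8% of all tested genes were called higher and 21.5% lower. In ET against E0 at 10 d, 5 of 9 were higher (HDA5, HDA6, HDA15, HDA18, HDA19) and 0 lower, against 18% and 20% of all genes. This count was 3 without ET 10 d replicate b or without E0 10 d replicate a, and 4 without any other single library of the comparison. The median log2 fold change of the members was 0.56 at 5 d and 0.37 at 10 d, and that of all genes 0.07 and 0.01. Apart from HDA18, the log2 fold changes of the members called did not exceed 1.03.

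The auxin medium gave fewer calls on day 5 and a like number on day 10. In EA against E0 at 5 d, 3 of 9 members were higher (HDA5, HDA9, HDA15) and 0 lower, while 19% of all genes were called higher and 20.8% lower. In EA against E0 at 10 d, 4 of 9 were higher (HDA5, HDA9, HDA15, HDA19) and 0 lower, while 24.2% of all genes were called higher and 25% lower. The median log2 fold change of the members was 0.48 at 5 d and 0.56 at 10 d, beside 0.02 and 0.09 over all genes. The ET and EA comparisons share the E0 libraries of the day. A setting moved the count for EA against E0 at 5 d, since scaling by library totals called 7 members higher and a fit of the compared libraries alone called 5.

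**Figure D2:**
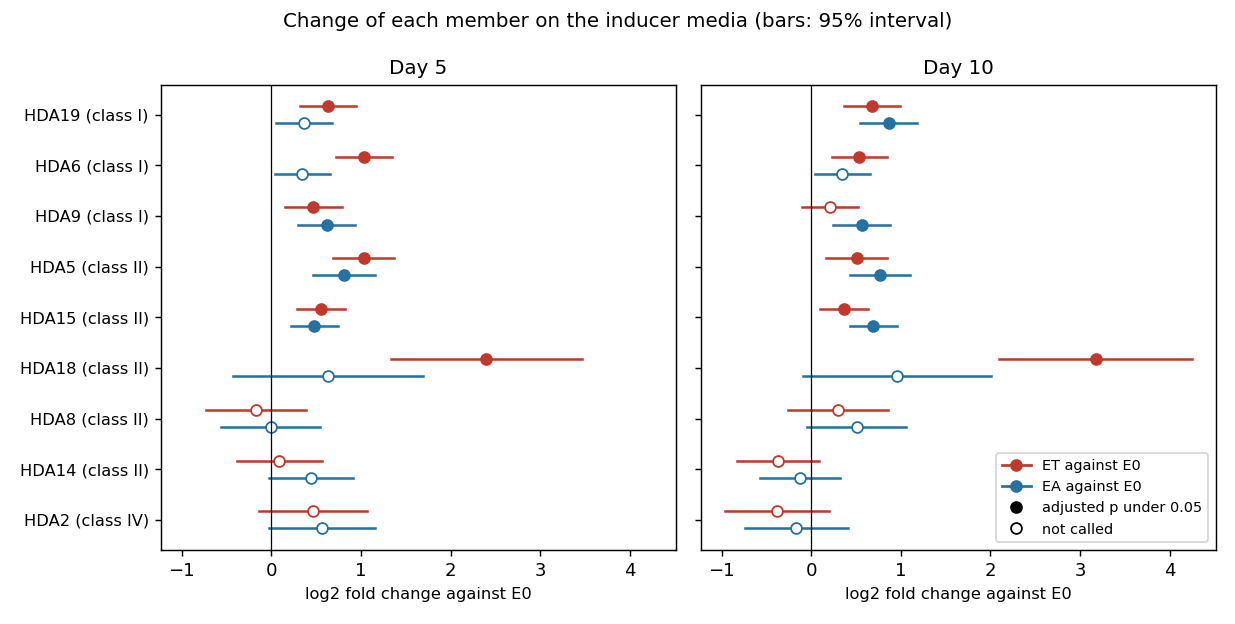
Log2 fold change of each tested member in ET against E0 (red) and EA against E0 (blue) on day 5 and day 10, with 95% intervals; filled points have an edgeR adjusted p under 0.05. HDA18 lies at 2.40 and 3.17 in ET, and every other filled point lies between 0.37 and 1.03.

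Among the class I genes, HDA19 encodes the deacetylase that works with SIN3-type scaffolds and TOPLESS corepressors. On day 5 its level was 174, 204 and 192 CPM in ET, 152, 142 and 178 CPM in EA, and 118, 115 and 134 CPM in E0. On day 10 it was 151, 147 and 111 CPM in ET, 150, 144 and 169 CPM in EA, and 80.6, 93.6 and 80.8 CPM in E0. All ET and all EA libraries were above all E0 libraries of their day. HDA19 rose 1.55-fold in ET against E0 at 5 d (log2 fold change 0.64, SE 0.15, edgeR adjusted p = 0.00226) and 1.6-fold at 10 d (0.68, SE 0.15, edgeR adjusted p = 0.00161). In EA against E0 it rose 1.82-fold at 10 d (log2 fold change 0.86, SE 0.15, edgeR adjusted p = 0.000151), and the value at 5 d was 0.37 (SE 0.15, edgeR adjusted p = 0.0597), which was called in a fit of the compared libraries alone (0.0451) or with library totals (0.00628).

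HDA6, which silences transposons and rRNA gene repeats together with the DNA methyltransferase MET1, was highest on the TSA medium. The day 5 levels were 40.7, 43.1 and 56.7 CPM in ET, 28.0, 28.3 and 31.3 CPM in EA, and 25.5, 21.2 and 21.9 CPM in E0. The day 10 levels were 29.9, 38.1 and 32.6 CPM in ET, 27.9, 28.1 and 32.2 CPM in EA, and 24.1, 21.1 and 24.1 CPM in E0. On day 5 the ET libraries stood above both other media, whereas on day 10 the ET and EA libraries overlapped. HDA6 rose 2.04-fold in ET against E0 at 5 d (log2 fold change 1.03, SE 0.15, edgeR adjusted p = 3.28e-05) and 1.45-fold at 10 d (0.54, SE 0.15, edgeR adjusted p = 0.00786). In EA against E0 its log2 fold change was 0.35 at both 5 d and 10 d (edgeR adjusted p = 0.072 and 0.059), although all EA libraries were above all E0 libraries. Library totals as scaling called both of these EA changes (edgeR adjusted p = 0.00345 at 5 d and 0.00731 at 10 d), and a fit of the compared libraries alone called the one at 5 d (0.0361).

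HDA9 acts with POWERDRESS and HOS15 in flowering and senescence. It had 32.1, 27.3 and 22.0 CPM in ET 5 d, 32.0, 30.9 and 27.3 CPM in EA 5 d, and 20.0, 19.6 and 19.2 CPM in E0 5 d. On day 10 it had 25.8, 24.7 and 25.9 CPM in ET, 39.2, 30.1 and 28.3 CPM in EA, and 22.4, 21.0 and 22.8 CPM in E0. Each ET and EA library exceeded the E0 libraries of its day. HDA9 rose 1.53-fold in EA against E0 at 5 d (log2 fold change 0.62, SE 0.15, edgeR adjusted p = 0.00362) and 1.47-fold at 10 d (0.56, SE 0.15, edgeR adjusted p = 0.00516). In ET against E0 it rose 1.38-fold at 5 d (log2 fold change 0.47, SE 0.15, edgeR adjusted p = 0.0186), and at 10 d the value was 0.21 (SE 0.15, edgeR adjusted p = 0.305). The ET call at 5 d was lost without ET replicate a (log2 fold change 0.33, edgeR adjusted p = 0.112) or without E0 replicate c (0.46, edgeR adjusted p = 0.0534), with library totals (0.0602) or in a fit of the compared libraries alone (0.0915), and the EA call at 10 d in a fit of the compared libraries alone (0.0547).

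HDA18, a class II gene known from the patterning of hair and non-hair cells in the root epidermis, showed the largest change of the family. On day 5 it had 4.62, 3.66 and 4.28 CPM in ET, 1.44, 1.08 and 1.19 CPM in EA, and 1.07, 0.809 and 0.329 CPM in E0. On day 10 it had 3.47, 8.16 and 2.28 CPM in ET, 1.56, 0.692 and 0.702 CPM in EA, and 0.483, 0.736 and 0.390 CPM in E0. Every ET library was above every EA and E0 library of its day, and the 3 ET 10 d libraries were spread more widely than those of any other group. The gene is sparse, with 3 counts, the floor, in E0 5 d replicate c and at most 193 counts in any library.

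HDA18 rose 5.27-fold in ET against E0 at 5 d (log2 fold change 2.40, SE 0.50, edgeR adjusted p = 0.001) and 9.02-fold at 10 d (3.17, SE 0.51, edgeR adjusted p = 0.000128). In EA against E0 the log2 fold change was 0.63 at 5 d (SE 0.50, edgeR adjusted p = 0.341) and 0.96 at 10 d (SE 0.49, edgeR adjusted p = 0.12), which did not pass the test. Against EA itself, ET was 3.41-fold higher at 5 d (log2 fold change 1.77, SE 0.46, edgeR adjusted p = 0.00709) and 4.66-fold higher at 10 d (2.22, SE 0.47, edgeR adjusted p = 0.00176). The 4 ET calls held under all settings tried and without any single library. ET 10 d replicate b carried part of the size on day 10, where without it the log2 fold change was 2.46 against E0 and 1.51 against EA (edgeR adjusted p = 0.000766 and 0.0179).

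HDA5, the tandem neighbour of HDA18 and a partner of HDA6 in the repression of the flowering gene FLC, rose less but on both media. Its day 5 levels were 48.7, 43.0 and 52.1 CPM in ET, 39.3, 39.7 and 44.6 CPM in EA, and 23.1, 26.0 and 21.4 CPM in E0. Its day 10 levels were 36.8, 45.5 and 38.6 CPM in ET, 59.7, 36.3 and 49.1 CPM in EA, and 28.2, 29.4 and 27.7 CPM in E0. All inducer libraries were above the E0 libraries of the day, and the ET and EA libraries overlapped on both days. HDA5 rose 2.04-fold in ET at 5 d (log2 fold change 1.03, SE 0.16, edgeR adjusted p = 7.73e-05) and 1.42-fold at 10 d (0.51, SE 0.16, edgeR adjusted p = 0.0192), and in EA 1.75-fold at 5 d (0.81, SE 0.16, edgeR adjusted p = 0.000703) and 1.7-fold at 10 d (0.77, SE 0.16, edgeR adjusted p = 0.000791). The ET call at 10 d was lost without E0 replicate a or c or ET replicate b or c, with edgeR adjusted p-values of 0.0528, 0.0601, 0.0917 and 0.0715. Between ET and EA the HDA5 log2 fold change was 0.22 at 5 d and -0.26 at 10 d (edgeR adjusted p = 0.295 and 0.219), beside 1.77 and 2.22 for HDA18.

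**Figure D3:**
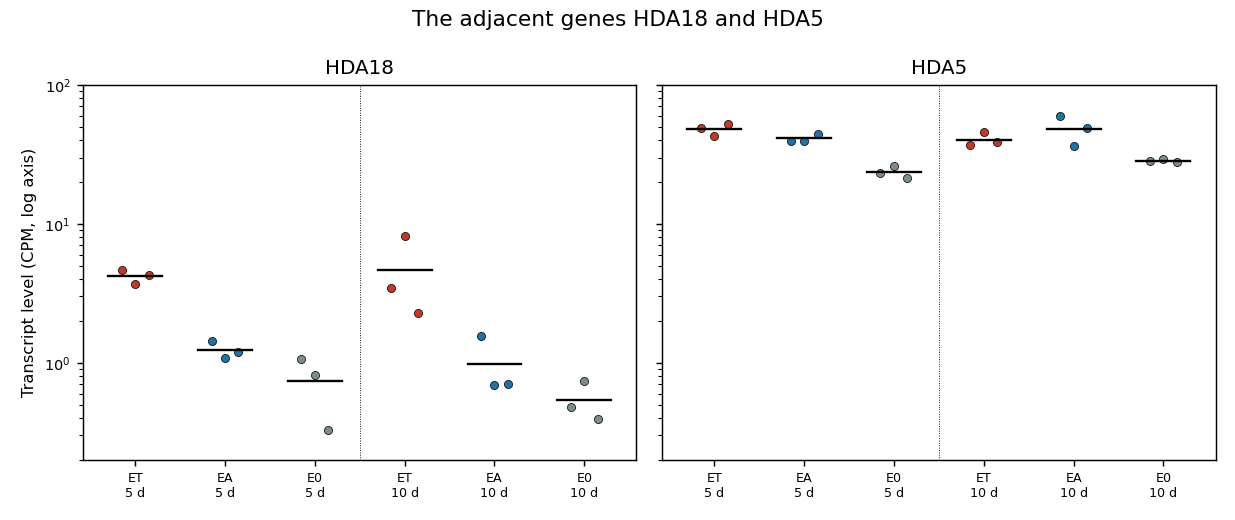
Transcript level (CPM, log axis) of the adjacent genes HDA18 and HDA5 in each library, with the group mean as a line. HDA18 averages 4.19 and 4.63 CPM on ET and at most 1.24 CPM on EA or E0, whereas HDA5 lies between 21.4 and 59.7 CPM in all libraries.

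HDA15, which represses chlorophyll synthesis genes in the dark together with the factor PIF3, was higher on both inducer media. On day 5 it had 49.4, 44.3 and 51.3 CPM in ET, 42.9, 47.0 and 47.7 CPM in EA, and 35.7, 30.4 and 32.3 CPM in E0. On day 10 it had 48.5, 49.5 and 41.4 CPM in ET, 59.7, 53.1 and 61.7 CPM in EA, and 35.2, 32.3 and 40.3 CPM in E0. No inducer library overlapped with E0 of its day, and on day 10 the EA libraries were all above the ET libraries. HDA15 rose in ET 1.47-fold at 5 d (log2 fold change 0.56, SE 0.13, edgeR adjusted p = 0.00182) and 1.29-fold at 10 d (0.37, SE 0.13, edgeR adjusted p = 0.0289), and in EA 1.4-fold at 5 d (0.48, SE 0.13, edgeR adjusted p = 0.00589) and 1.62-fold at 10 d (0.69, SE 0.13, edgeR adjusted p = 0.000244). The ET call at 10 d was not stable, since it was lost without E0 replicate a or b or ET replicate a or b (edgeR adjusted p = 0.0813, 0.115, 0.0864 and 0.106) and with DESeq2's size factors (0.0657), library totals (0.0719), no filter (0.0521) or the compared libraries alone (0.0644).

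The remaining members, HDA8 and HDA14 of class II and HDA2 of class IV, were called in none of the comparisons of an inducer medium with E0. HDA8 lay between 6.67 and 14.3 CPM in ET, 9.77 and 19.6 CPM in EA, and 8.97 and 14.1 CPM in E0, and its log2 fold changes against E0 ran from -0.17 in ET at 5 d to 0.51 in EA at 10 d. HDA14, a plastid protein that deacetylates lysines of chloroplast enzymes, lay between 3.44 and 6.53 CPM in ET, 4.58 and 7.77 CPM in EA, and 3.84 and 8.47 CPM in E0. HDA2, related to human HDAC11, lay between 3.66 and 5.91 CPM in ET, 4.04 and 8.00 CPM in EA, and 2.19 and 7.16 CPM in E0. Over both days the ranges of the media overlapped for all of these genes, whose 95% intervals in ET against E0 at 5 d were -0.73 to 0.39 for HDA8, -0.39 to 0.56 for HDA14 and -0.14 to 1.07 for HDA2 (log2). Within a day, all ET libraries were above all E0 libraries for HDA8 at 10 d (log2 fold change 0.30, SE 0.26, edgeR adjusted p = 0.407), and all EA libraries were above all E0 libraries for HDA14 at 5 d (0.44, SE 0.22, edgeR adjusted p = 0.126), but neither passed the test. At 10 d all ET libraries were below all E0 libraries for HDA2, with a log2 fold change of -0.39 that did not pass the test (SE 0.27, edgeR adjusted p = 0.298). Scaling by library totals called HDA2 and HDA14 higher in EA at 5 d (edgeR adjusted p = 0.0228 and 0.0407) and HDA8 in EA at 10 d (0.0369). Leaving out 1 library called HDA2 in EA at 5 d (0.0344, without E0 replicate a) and HDA8 in EA at 10 d (0.0455, without EA replicate a).

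**Figure D4:**
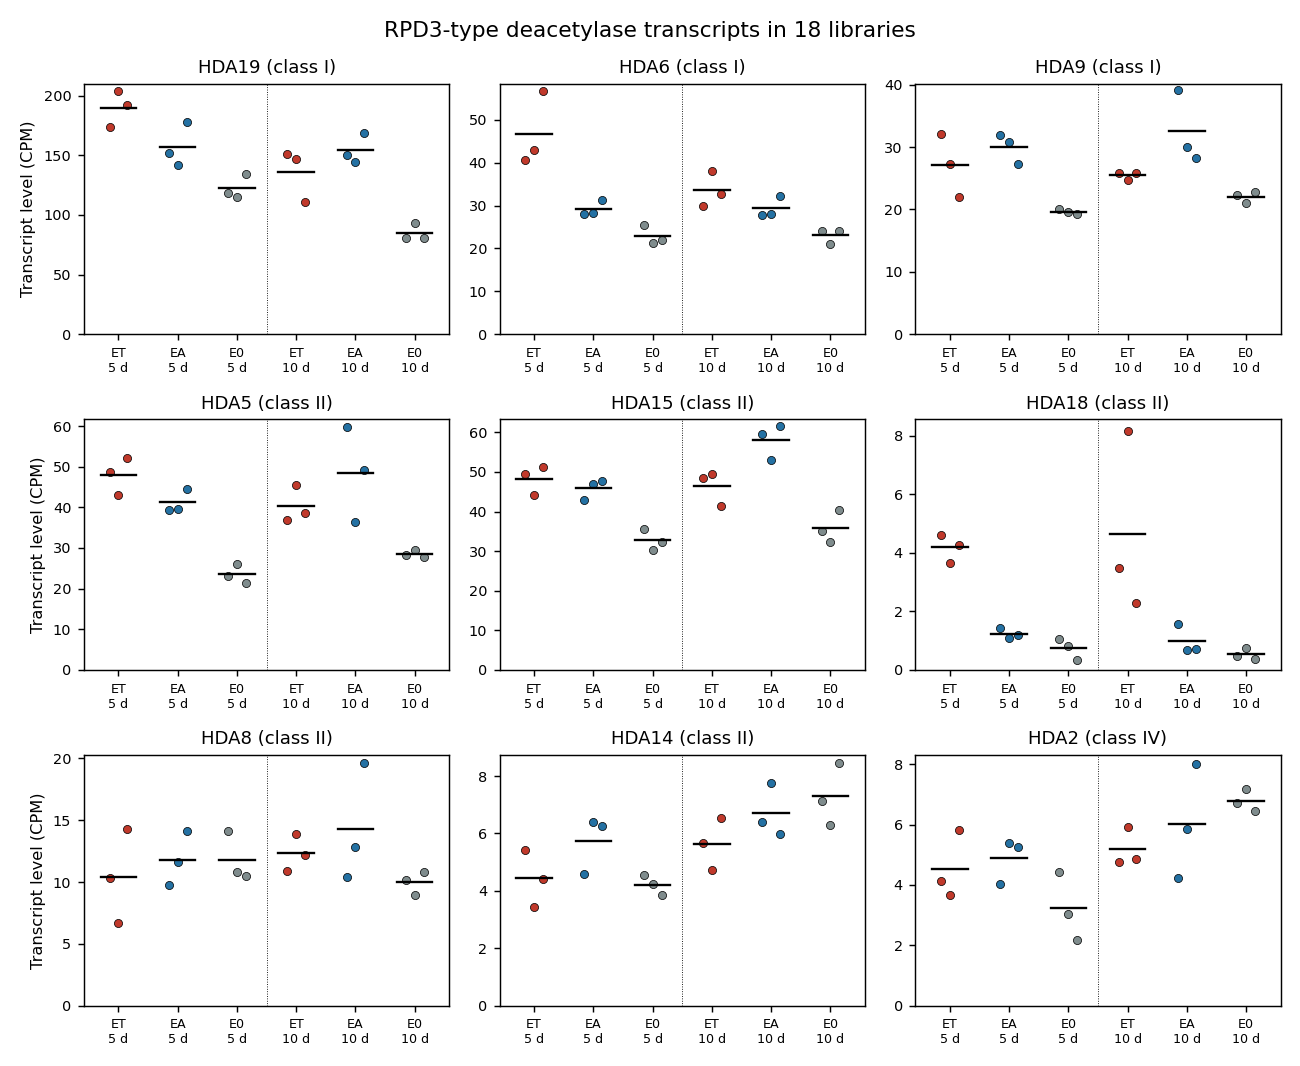
Transcript level (CPM) of the 9 tested members in the 18 libraries, with the group mean as a line; ET is red, EA blue and E0 grey. For HDA19, HDA6, HDA9, HDA5, HDA15 and HDA18 the ET libraries lie above the E0 libraries of their day, and for HDA8, HDA14 and HDA2 the ET and E0 libraries overlap on day 5.

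The direct comparison of the inducers gave few calls. In ET against EA at 5 d, 2 of 9 members were higher, HDA18 and HDA6, and 0 were lower, where 20.1% of all genes were called higher and 16.4% lower. HDA6 was 1.61-fold higher in ET at 5 d (log2 fold change 0.68, SE 0.15, edgeR adjusted p = 0.00162), without overlap of the libraries. In ET against EA at 10 d, HDA18 was the 1 member called higher and 0 were lower, where 17.6% of all genes were called higher and 14.4% lower. HDA9 and HDA15 were lower in every ET library than in every EA library at 10 d, but with log2 fold changes of -0.35 and -0.33 did not pass the test (edgeR adjusted p = 0.08 and 0.0577). These values turned into calls with library totals (edgeR adjusted p = 0.0321 for HDA9 and 0.0091 for HDA15), without EA replicate c for HDA9 (0.0488), and without EA replicate b (0.0436) or with DESeq2 (0.0278) for HDA15. HDA5 was also called lower with library totals (edgeR adjusted p = 0.0366) or without EA replicate b (0.0328).

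Between the days, 3 members changed on E0, 2 on ET and 0 on EA, and each of these calls was lost without at least 1 single library. On E0, 2 members were higher at 10 d than at 5 d, HDA2 and HDA14, and 1 was lower, HDA19, where 10.4% of all genes were called higher and 7.1% lower. HDA2 had 6.71, 7.16 and 6.45 CPM in E0 10 d and 4.44, 3.03 and 2.19 CPM in E0 5 d (log2 fold change 1.03, SE 0.28, edgeR adjusted p = 0.0192). HDA14 had 7.13, 6.29 and 8.47 CPM in E0 10 d and 4.54, 4.25 and 3.84 CPM in E0 5 d (log2 fold change 0.79, SE 0.22, edgeR adjusted p = 0.0209). The groups did not overlap for either gene or for HDA19, which fell by 0.52 on the log2 scale (SE 0.15, edgeR adjusted p = 0.0216). None of these E0 calls was kept without E0 5 d replicate c (edgeR adjusted p = 0.0892 for HDA2, 0.0817 for HDA14 and 0.0953 for HDA19), and that library has the lowest total of the series. HDA2 was also lost without E0 5 d replicate b (edgeR adjusted p = 0.0682), HDA14 without E0 5 d replicate a or b or E0 10 d replicate c (0.0511, 0.0609 and 0.101), and HDA19 without E0 10 d replicate a or c (0.0768 and 0.0864).

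On ET, 2 members were lower at 10 d than at 5 d and 0 were higher, where 8.53% of all genes were called lower and 12% higher. HDA6 fell by 0.48 on the log2 scale (SE 0.15, edgeR adjusted p = 0.0282), as did HDA19 (0.48, SE 0.15, edgeR adjusted p = 0.031), and neither overlapped between the days. Both calls were lost without ET 5 d replicate c (edgeR adjusted p = 0.154 for HDA6 and 0.0681 for HDA19), without ET 10 d replicate c (0.0962 and 0.176), or in a fit of the compared libraries alone (0.139 and 0.138). HDA6 was also lost without ET 10 d replicate a (0.114) and HDA19 without ET 5 d replicate b (0.0873), with library totals (0.0636) or with no filter (0.051). ET 5 d replicate c had the largest share of counts from organelle genes, 13.3%, beside 5.32 to 9.34% in the other libraries, and the lowest TMM factor. On EA, 0 of 9 members were called between 10 d and 5 d, where 7.85% of all genes were called higher and 5.2% lower, with 1 member at an unadjusted p under 0.05 in edgeR and 1, HDA15, called by DESeq2.

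Whether the effect of an inducer differed between the days was tested as a difference of the differences. For the ET effect at 10 d against that at 5 d, 0 of 9 members were called (3 at an unadjusted p under 0.05 in edgeR, 0 by DESeq2), where 7.64% of all genes were called higher and 6.62% lower. For the EA effect, 0 of 9 were called (1 at an unadjusted p under 0.05 in edgeR, 0 by DESeq2), where 4.24% of all genes were called higher and 4.57% lower. The largest of these differences were -0.85 for HDA2 in ET (SE 0.40, edgeR adjusted p = 0.171) and 0.78 for HDA18 in ET (SE 0.69, edgeR adjusted p = 0.511). An effect called on 1 day alone, such as HDA9 in ET or HDA19 in EA, is therefore not shown to differ between the days.

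Ordered by group mean, 5 members (HDA5, HDA6, HDA9, HDA15 and HDA19) had both E0 groups at the low end, and so did HDA18, whose order was ET 10 d, ET 5 d, EA 5 d, EA 10 d, E0 5 d and E0 10 d. HDA2 and HDA14 instead had E0 10 d as the highest and E0 5 d as the lowest group. The highest group mean exceeded the lowest 8.64-fold for HDA18, 2.23-fold for HDA19, 2.1-fold for HDA2, 2.06-fold for HDA5 and 2.05-fold for HDA6, and 1.43-fold for HDA8, the narrowest. Neighbouring groups in these orders overlapped in 35 of 45 pairs. For HDA18 the libraries stood apart only between ET 5 d and EA 5 d, and for HDA19 only between E0 5 d and E0 10 d.

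The genes whose pattern was most like that of HDA19 were AT4G12410 (Pearson's r = 0.944), FUS6, which encodes a subunit of the COP9 signalosome (0.938), and PWD, a kinase of starch breakdown (0.925). HDA19 was taken for this as the member with the widest range of group means among those with at least 10 counts in every library, and r was computed on log2 CPM over 18 libraries for 23538 genes. The libraries of a group share their medium and day, so r describes mostly the order of the groups.

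RPD3-type enzymes do not bind DNA themselves, and the genes of their partners were described beside them. Of 12 genes for subunits of SIN3-type complexes, 9 were higher and 0 lower in ET against E0 at 5 d and 7 and 0 at 10 d, where 23.8% and 18% of all genes were called higher. The EA counts were 5 and 0 at 5 d, with 8 and 0 at 10 d, where 19% and 24.2% of all genes were called higher. AFR1 and AFR2, related to a subunit of the yeast complex, changed most at 10 d. AFR1 averaged 12.8 ± 0.38 CPM in ET 10 d, 11.7 ± 1.55 CPM in EA 10 d and 3.06 ± 0.53 CPM in E0 10 d (SD, n = 3 each; ET log2 fold change 2.06, edgeR adjusted p = 1.54e-06). AFR2 averaged 36.9 ± 4.29 CPM in ET 10 d, 18.7 ± 2.61 CPM in EA 10 d and 7.81 ± 2.13 CPM in E0 10 d (ET log2 fold change 2.23, edgeR adjusted p = 3e-06). The scaffold genes SNL2 and SNL6 rose by log2 fold changes of 0.82 and 0.79 in ET at 10 d (edgeR adjusted p = 0.0018 and 0.00209), and of 0.48 and 1.51 at 5 d (0.038 and 5.55e-06).

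Of 8 corepressor genes, which recruit deacetylases to transcription factors, 5 were higher and 0 lower in ET at 5 d, 4 and 0 at 10 d. The EA counts were 4 and 0 at 5 d, with 5 and 0 at 10 d. Of all genes, 23.8% and 18% were called higher in ET, 19% and 24.2% in EA, which holds beside this list and the next. LUG, a Groucho-type corepressor, rose in ET by 0.74 at 5 d and 1.01 at 10 d on the log2 scale, TPR3 by 1.69 and 0.76, and TPR1 by 0.67 and 0.68, the last 2 being relatives of TOPLESS (edgeR adjusted p from 6.45e-07 to 0.0117). Of 8 other partners of HDA6 and HDA9, 4 were higher and 0 lower in ET at 5 d, 3 and 0 at 10 d. The EA counts were 3 and 0 at 5 d, with 4 and 0 at 10 d. MET1 averaged 132 ± 16.5 CPM in ET 10 d, 116 ± 45.3 CPM in EA 10 d and 49.8 ± 1.62 CPM in E0 10 d (ET log2 fold change 1.41, edgeR adjusted p = 0.000176). MSI5 and MSI4, which encode histone-binding WD40 proteins, rose by 0.73 and 0.71 in ET at 10 d (edgeR adjusted p = 0.0106 and 0.0129). The median log2 fold changes in ET at 5 d were 0.48 for the SIN3-type subunits, 0.60 for the corepressors and 0.62 for the other partners, close to the 0.56 of the deacetylases and above the 0.07 of all genes.

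Deacetylases of other families comprise the plant-specific HD2 type, which the study's introduction also counts among the targets of TSA, and the sirtuins. Of these 6 genes, 5 were higher and 0 lower in ET at 5 d (23.8% and 21.5% of all genes), and 2 were higher and 1 lower at 10 d (18% and 20% of all genes). The EA counts were 5 and 0 at 5 d, with 4 and 0 at 10 d, beside 19% and 24.2% of all genes called higher. HDT3 of the HD2 type rose by 1.32 at 5 d and 1.12 at 10 d in ET (edgeR adjusted p = 3.85e-06 and 2.64e-05), and the sirtuin SRT1 by 0.63 and 0.73 (0.0168 and 0.00774). HDT4 was 1.98-fold higher in ET at 5 d and was the gene lower at 10 d, with 35.6 ± 5.3 CPM in ET and 48.9 ± 6.28 CPM in E0 (log2 fold change -0.46, edgeR adjusted p = 0.0381). Of 12 acetyltransferase genes, the opposing enzymes, 2 were higher and 0 lower in ET at 5 d, 3 and 0 at 10 d. The EA counts were 4 and 0 at 5 d, with 3 and 0 at 10 d. Of all genes, 23.8% and 18% were called higher in ET, and 19% and 24.2% in EA. The counts of higher acetyltransferase genes lay near these shares except in EA at 5 d. There 4 of 12 were higher, beside 3 of 9 RPD3-type genes. HAG2, a type B acetyltransferase gene, was the 1 called in ET on both days (1.14 at 5 d and 0.94 at 10 d, edgeR adjusted p = 8.47e-05 and 0.000593). The median log2 fold change of the acetyltransferase genes was 0.11 at 5 d and 0.35 at 10 d for ET, then 0.37 at 5 d and 0.34 at 10 d for EA, beside 0.56, 0.37, 0.48 and 0.56 for the RPD3-type genes.

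**Figure D5:**
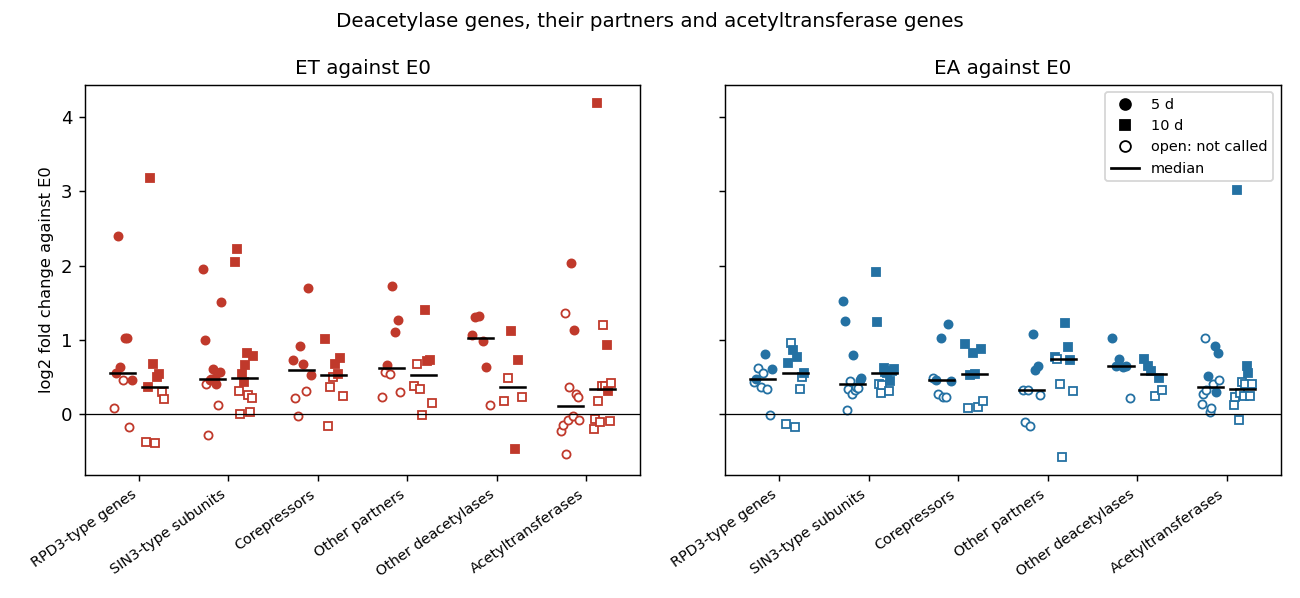
Log2 fold change against E0 of the RPD3-type genes and of 5 lists of related genes, in ET (left panel) and EA (right panel), on day 5 (circles) and day 10 (squares), with the median of each list as a line. The medians of the RPD3-type and the acetyltransferase genes are 0.56 and 0.11 for ET on day 5, 0.37 and 0.35 for ET on day 10, 0.48 and 0.37 for EA on day 5, and 0.56 and 0.34 for EA on day 10; open points did not pass the test.

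Embryo regulators that the study's introduction names as genes under control of histone acetylation were taken for reference. Of these 6 genes, 4 were higher in ET at 5 d and 6 at 10 d, where 23.8% and 18% of all genes were. On EA, 3 were higher at 5 d (19% of all genes), while at 10 d 5 were higher and 1 lower (24.2% and 25% of all genes). LEC1, a regulator of embryo identity, averaged 12.3 ± 1.96 CPM in ET 10 d, 4.51 ± 2.47 CPM in EA 10 d and 0.165 ± 0.0892 CPM in E0 10 d (SD, n = 3 each; ET log2 fold change 6.03, edgeR adjusted p = 2.37e-06). LEC2 averaged 10.0 ± 0.80 CPM in ET 10 d, 5.16 ± 1.87 CPM in EA 10 d and 0.323 ± 0.208 CPM in E0 10 d (ET log2 fold change 4.90, edgeR adjusted p = 1.51e-07). MYB118 averaged 48.3 ± 2.53 CPM in ET 10 d and 1.1 ± 0.626 CPM in E0 10 d. In EA 10 d it averaged 0.204 ± 0.0373 CPM, with 7 to 13 counts, and was the gene called lower. FUS3 averaged 372 ± 55.9 CPM in ET 10 d. Its EA 10 d and E0 10 d levels were 106 ± 38.6 and 57.2 ± 2.69 CPM. In ET against E0 at 10 d the RPD3-type genes other than HDA18 rose at most 1.6-fold, while LEC1 rose 65.5-fold and LEC2 29.8-fold. The E0 10 d libraries held 1 to 11 counts of LEC1 and 3 to 21 of LEC2. These lie near the floor of 3 counts, so the LEC1 and LEC2 folds are imprecise.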

How the data were processed

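The authors removed rRNA reads, mapped paired reads of 76 bases with STAR to TAIR10, and deposited, for each of 18 libraries, raw counts per gene of the reads with a unique position. These counts were analysed in R 4.3.3. Genes passing edgeR's filterByExpr (23539 of 34218) were scaled by TMM and fitted in edgeR 4.0.16 with 1 mean per group over all libraries; p-values were adjusted by Benjamini-Hochberg over all genes, and the standard error is the absolute log2 fold change divided by the square root of F. Alternatives were DESeq2 1.42.0 with beta prior, DESeq2 size factors, library totals, no filter, a minimum log2 fold change of 1 in either direction, the compared groups alone, a replicate block and each library left out. The fit was tested on simulated data with known changes in ET against E0 at 5 d, in 200 of 23073 genes. It recovered 35 of 100 changes of 2-fold and 91 of 100 of 4-fold, and 8.7% of 138 calls were false. In the data, 5604 genes were called higher and 5069 lower in this comparison. With so many more changes the threshold on the p-value differs, so these rates do not measure recovery in the data. A member that was not called is in any case not shown to be unchanged. Gene sequences and exon lengths came from RefSeq TAIR10.1. No expression value entered the rule that set the members by their locus codes. The members and gene lists were nonetheless chosen with earlier results of these data known. All members are described, and genes of the partner lists were named if called in ET against E0 on both days, up to 4 per list by size at 10 d, with HDT4 named after its values were seen. PCR reads without molecular identifiers are not independent molecules, so the floors cover counting error only. The annotation release and strand setting of the counts are not given in the sources used here.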

Additional observations from a re-analysis of the deposited data

How the results depend on the processing

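No called change of a member turned its sign under any alternative listed here. A minimum log2 fold change of 1 in either direction left 3 members in ET against E0 at 5 d, 1 at 10 d, 0 in EA against E0 at 5 d and 0 at 10 d, 1 in ET against EA at 5 d, 1 between days on E0 and 0 between days on ET. Library totals, which moved the median of all genes by 0.21 in EA against E0 at 5 d, 0.14 at 10 d, -0.24 in ET against EA at 5 d and -0.18 at 10 d, gave 7 members in EA against E0 at 5 d, 4 in ET against EA at 10 d and 1 between days on ET. Library totals also added HDA6 and HDA8 in EA against E0 at 10 d, and lost HDA9 in ET against E0 at 5 d and HDA15 at 10 d. The compared groups alone gave 5 in EA against E0 at 5 d and 0 between days on ET. They lost HDA9 in ET against E0 at 5 d and in EA against E0 at 10 d. HDA15 in ET against E0 at 10 d was lost with them, with DESeq2 size factors and with no filter. No filter gave 1 between days on ET, and DESeq2 gave 2 in ET against EA at 10 d and 1 between days on EA. Leaving out 1 library gave 5 to 6 members in ET against E0 at 5 d, 3 to 4 at 10 d, 3 to 4 in EA against E0 at 5 d, 4 to 5 at 10 d, 2 in ET against EA at 5 d, 1 to 3 at 10 d, 0 to 3 between days on E0 and 0 to 2 on ET; the other counts stayed at 0. The replicate letters were not taken to pair the libraries in the main fit. Of the same-letter correlations of deviations, 15 of 45 exceeded 0.1 (median 0.0185, highest 0.728). Between different letters 18 of 90 did (highest 0.236). Some same-letter libraries were thus more alike than any of different letters, and whether they share a batch was not tested. A replicate block gave the same counts of 6, 5, 3, 4, 2, 1, 3, 2, 0, 0 and 0 calls over the 11 comparisons. The depth of 9098758 counts in the smallest library limits HDA18, which lies at the floor there. Why the counts moved was not tested.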
